A study of Mus musculus with 24 samples.

Results

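The Zfp genes with a number below 600 are mouse zinc finger protein genes, described here across the libraries of a methylated RNA immunoprecipitation experiment. Members were the protein-coding genes whose symbol is Zfp followed by a number below 600 and nothing else. A member also had to reach 10 counts in 3 or more of the Input libraries. Of 200 such symbols, 194 were protein-coding, 14 of these stayed below the count minimum, and 180 were members, of 16090 genes tested and 54446 gene identifiers in all. No member passed the count minimum through 1 group alone, and 168 held at least 10 counts in all 12 Inputs. By the count in the 3rd highest Input library, Zfp37 at 10 and Zfp2 at 12 were just inside the minimum, and Zfp459 at 9 and Zfp423 at 6 were just outside it.

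CD11b+ myeloid cells were sorted from MC38 tumours, a transplanted mouse colon carcinoma, grown in C57BL/6J mice. WT mice carried floxed Ythdf2 without Cre, and cKO mice carried the same floxed alleles with Cre expressed from the Lyz2 locus, which is active in monocytes, macrophages and neutrophils and not in every CD11b+ cell. Tumours received no radiation (Ctrl) or 1 dose of 20 Gy (IR), and cells were taken 3 days later. Each combination was sequenced as Input RNA and as RNA pulled down with an antibody against N6-methyladenosine (m6A IP), with 3 libraries for each of 8 groups. The cells of each replicate came from pooled mice, so the errors and p-values below measure the spread between libraries, which may be technical.

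Most proteins in this class carry an array of C2H2 zinc fingers, each a short loop around a zinc ion that reads a few bases of DNA, and the array is usually encoded by a single long exon. Many also carry a KRAB box, which recruits TRIM28 and through it histone methylation and heterochromatin, a system known for silencing transposable elements. Other members bind RNA, ribosomes or the mitotic spindle. In mRNA, m6A is written by METTL3 and METTL14, is frequent in long internal exons and near stop codons, and is read by YTHDF2, which recruits deadenylation machinery and shortens the life of the bound transcript.

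Gene counts summed to between 65180075 and 83661576 in the Inputs and between 68846321 and 86421888 in the IP libraries. Ythdf2 counts did not fall with the labels, being 96.8 ± 1.23 CPM (gene counts scaled to library size, mean ± SD, n = 3) and 105 ± 1.51 CPM in the WT Inputs, Ctrl and IR, and 178 ± 6.05 and 223 ± 7.25 CPM in those labelled cKO, Ctrl and IR. Counts over a whole gene do not check the deletion of a part of it, and the latter are called libraries labelled cKO where a direction rests on the label. Lyz2, whose locus holds the Cre, averaged 20586 and 20745 CPM in the WT Inputs and 300 and 409 CPM in the cKO Inputs. In the IP libraries it averaged 16116 CPM in WT Ctrl and 88.6 CPM in cKO Ctrl, but 89.6 CPM in the libraries labelled WT IR and 19700 CPM in those labelled cKO IR. The IR IP libraries therefore went against their genotype labels, and IP results are given first for Ctrl alone and for IR as the average of both genotypes, which does not depend on that assignment.

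Summed CD11b+ myeloid markers lay between 3555 and 5182 CPM in the Inputs, with 7 of 7 genes detected, summed lymphocyte markers (7 genes) between 0.798 and 1.64 CPM, with Cd3e or Ncr1 at 0 throughout a group, and summed tumour and stroma markers (7 genes) between 1.52 and 3.71 CPM, with Krt8 at 0 in 3 of the 4 groups. Summed progenitor markers were lower after radiation, going from 69.2 to 75 CPM (WT Ctrl) to 20.3 to 23.1 CPM (WT IR) and from 30.5 to 32.3 CPM (cKO Ctrl) to 14.7 to 15.3 CPM (cKO IR). Summed erythroid markers reached 27.4 to 29.9 CPM in WT IR Inputs and at most 0.067 CPM in the other Inputs, and no IP library held more than 0.189 CPM. Mitochondrial genes took 6.13 to 7.25% of gene counts in WT IR Inputs, 3.39 to 3.75% in cKO IR, 4.61 to 4.84% in WT Ctrl and 5.34 to 5.51% in cKO Ctrl. The part of these shifts in the results below was not tested.

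The peaks over members are shown first by sequence, because they place the antibody signal within the coding exons. The 6 windows below are the 101 bases centred on the summits of the WT Ctrl consensus peaks with the highest mean fold enrichment among member peaks whose summit lay in coding sequence, with the window inside a single coding exon. A consensus peak is one found in all 3 replicate libraries on the strand of the gene. Sequences are from the GRCm38 genome, read 5′ to 3′ on the transcribed strand, and capitals mark the letters AC with a purine (A or G) at each of the 2 places before them, such as GGAC, the core of the usual m6A context.
Zfp7: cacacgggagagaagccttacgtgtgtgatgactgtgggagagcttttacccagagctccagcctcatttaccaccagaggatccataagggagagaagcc
Zfp472: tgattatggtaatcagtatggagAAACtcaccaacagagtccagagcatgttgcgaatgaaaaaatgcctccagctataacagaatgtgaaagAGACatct
Zfp408: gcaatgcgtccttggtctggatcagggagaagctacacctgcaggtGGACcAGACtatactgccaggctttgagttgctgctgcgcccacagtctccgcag
Zfp64: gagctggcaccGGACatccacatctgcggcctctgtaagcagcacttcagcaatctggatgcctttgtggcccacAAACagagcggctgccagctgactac
Zfp54: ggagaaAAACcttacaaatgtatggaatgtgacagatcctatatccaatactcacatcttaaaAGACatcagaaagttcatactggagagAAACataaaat
Zfp61: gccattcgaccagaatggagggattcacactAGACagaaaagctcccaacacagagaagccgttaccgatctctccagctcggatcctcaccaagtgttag

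The windows lie at chr15:76891227-76891327 on the + strand for Zfp7, chr17:32977189-32977289 on the + strand for Zfp472 and chr2:91647714-91647814 on the - strand for Zfp408. Those of Zfp64, Zfp54 and Zfp61 lie at chr2:168951652-168951752 on the - strand, chr17:21434884-21434984 on the + strand and chr7:24291938-24292038 on the - strand. The summits of Zfp7, Zfp472, Zfp54 and Zfp61 were in the last exon, and those of Zfp408 and Zfp64 were in another coding exon. Zfp7, Zfp64 and Zfp54 had the summit between the first and last finger, and Zfp472, Zfp408 and Zfp61 had it before the first. The Zfp7 window held none of the marked letters, and it held a copy of the conserved linker codons that join neighbouring fingers.

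Peak heights over the consensus peaks that hold these windows varied between libraries. Each value below is the highest fold of any peak overlapping the whole consensus peak, which is longer than the window. For Zfp7 the consensus peak ran from 76889905 to 76892280 on chromosome 15, so its height may lie outside the letters shown. For Zfp7 the highest fold over background was 12.9, 9.66 and 14.1 in the 3 WT Ctrl libraries, 6.46, 5.57 and 8.49 in cKO Ctrl, 5.26, 6.2 and 5.48 in the libraries labelled WT IR and 10.6, 10.3 and 8.54 in those labelled cKO IR. The windows were ranked by their WT Ctrl fold, so a higher fold there than in another group was favoured by the choice and is a description. For Zfp54 the fold was 8.24, 6.16 and 7.53 in WT Ctrl, 10.7, 10.4 and 6.4 in cKO Ctrl, 7.14, 7.12 and 5.96 in libraries labelled WT IR and 4.04, 9 and 4.85 in those labelled cKO IR, and these ranges overlapped. For Zfp408 a peak overlapped in the 3 WT Ctrl libraries, with folds of 9.87, 12.4 and 5.6, its presence there being fixed by the choice. No peak overlapped in the 3 cKO Ctrl libraries. After IR a peak overlapped in libraries labelled WT IR, replicates 2 and 3 (3.61 and 3.78) but not 1. It did so in all those labelled cKO IR (4.06, 7.35 and 5.99). Zfp408 also carried 2 consensus peaks elsewhere in cKO Ctrl. A peak not called does not show that the site was unmethylated. Zfp472, Zfp64 and Zfp61 had a peak in all 12 IP libraries.

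By structure, the members had a median coding length of 1767 bases, a median of 11 zinc fingers counted from the C2H2 spacing in the translated transcript (0 to 40), and 83.4% of the coding sequence in the longest coding exon. Of the 180, 90 held a KRAB letter pattern near the protein start. Chromosome 7 held 52 members, chromosome 13 held 19, chromosome 17 held 18, chromosome 9 held 10, and chromosomes 2, 4, 5, 6 and 18 held 9 each. Zinc finger genes that lie side by side often share sequence, so counts of near-identical paralogs are uncertain.

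Members were low in the Inputs. The median level per length was 1.53 CPM per kb of exon against 2.71 over all genes tested, 65 members were above that median, and 68 were under 1 CPM per kb. KRAB members had a median of 1.05 CPM per kb and the others 3.04. The highest was Zfp36 (tristetraprolin, which binds AU-rich elements and promotes decay of cytokine mRNAs; chr7:28376784-28380253, - strand) at 43.7 CPM per kb, the 93.4th percentile of all genes. Zfp106, an RNA-binding protein, followed at 32.5 CPM per kb, then the repressor Zfp217 at 23.3, the spindle protein Zfp207 at 19.3 and the SCAN-domain factor Zfp263 at 19.1. The lowest were Zfp37, Zfp462 and Zfp82, between 0.0154 and 0.0215 CPM per kb, near the count minimum. By group, Zfp36 averaged 152 ± 5.89 CPM (WT Ctrl) and 155 ± 2.96 CPM (cKO Ctrl) without radiation, and 170 ± 12.7 CPM (WT IR) and 129 ± 3.3 CPM (cKO IR) with it (mean ± SD, n = 3).

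The first comparison asked how irradiation changed Input RNA in WT cells. Of the 180 members, 42 (23.3%) were called at an adjusted p under 0.05, 29 higher and 13 lower after IR, where the background of called genes was 31.7%. The share higher was 16.1% against a background of 14.7%, and the share lower was 7.22% against 17.0%. The median log2 fold change was 0.09 over members and 0.01 over all genes, and 2 of the called members changed by at least 2-fold. Fitted on these 6 libraries alone, 23 members were called, 18 higher and 5 lower. Fewer cells of a type and less RNA per cell cannot be told apart in such bulk samples. Fold changes below are log2 values ± SE, with Benjamini-Hochberg adjusted p from edgeR's quasi-likelihood test over all genes.

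Zfp395, a DNA-binding factor with 1 finger match (chr14:65358389-65398930, + strand), fell most of the called members. It went from 9.26, 8.36 and 9.89 CPM (WT Ctrl) to 4.69, 4.65 and 4.67 CPM (WT IR), with no overlap (-0.97 ± 0.09, adjusted p = 9.1e-08). Zfp367 went from 8.62, 7.24 and 8.36 CPM (WT Ctrl) to 5.55, 6.53 and 6.35 CPM (WT IR), again without overlap (-0.39 ± 0.09, adjusted p = 0.0019). Smaller falls were called for Zfp142 (-0.24 ± 0.06), Zfp326 of the splicing-linked DBIRD complex (-0.20 ± 0.05) and Zfp382 (-0.27 ± 0.09), a call that was lost without WT Ctrl replicate 2 or WT IR replicate 1 or 2.

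Zfp365, which has been tied to genome stability and held no C2H2 match in the transcript read here (chr10:67886103-67912662, - strand), rose most of the called members. It went from 0.472, 0.327 and 0.615 CPM (WT Ctrl) to 1.4, 1.38 and 1.89 CPM (WT IR), a log2 change of 1.72 ± 0.31, adjusted p = 0.00019, so the lowest IR library was above the highest Ctrl library. The KRAB gene Zfp300 went from 0.306, 0.222 and 0.254 CPM (WT Ctrl) to 0.545, 0.632 and 0.747 CPM (WT IR), a log2 change of 1.30 ± 0.37, adjusted p = 0.01. Zfp105 went from 3.17, 3.02 and 3.05 CPM (WT Ctrl) to 4.97, 4.86 and 4.47 CPM (WT IR), a log2 change of 0.63 ± 0.12, adjusted p = 0.00051. None of these overlapped between groups, although Zfp365 and Zfp300 were low in every library. Zfp174 (0.63 ± 0.21) and Zfp93 (0.55 ± 0.17) also rose, each losing the call when single libraries were left out. Across the 42 called, the 3 Ctrl and 3 IR libraries did not overlap for 39 (92.9%), against 93.2% of all called genes.

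The same question in libraries labelled cKO gave 74 called members of 180 (41.1%), 44 lower and 30 higher, where the background was 45.6%. The share lower was 24.4% against a background of 23.8%, and the share higher was 16.7% against 21.8%. The median was 0.00 over members and 0.01 over all genes, and the members' shares lay near the background in the lower direction and under it in the higher one. The 3 libraries of each group did not overlap for 70 of the 74 (94.6%), against 97.9% of all called genes.

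Zfp395 fell here too, from 7.71, 7.49 and 7.82 CPM in cKO Ctrl to 3.5, 4.07 and 4.37 in cKO IR (-0.95 ± 0.10, adjusted p = 8.5e-08). Zfp142, which carries 40 finger matches, fell from 22.3, 20.2 and 23 CPM (cKO Ctrl) to 13.2, 14.3 and 14.4 CPM (cKO IR), a log2 change of -0.64 ± 0.07, adjusted p = 9e-08, and Zfp592 from 61.5, 59 and 61.4 CPM to 37.3, 38.6 and 40.6 CPM in the same order (-0.64 ± 0.04, adjusted p = 1.3e-10). The groups did not overlap for any of these genes. Zfp526 fell as well (-0.60 ± 0.09), as did Zfp174 (-0.71 ± 0.22), whose call was lost without cKO IR replicate 3.

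Zfp365 rose from 0.432, 0.712 and 0.409 CPM (cKO Ctrl) to 1.95, 1.31 and 1.01 CPM (cKO IR), a log2 change of 1.45 ± 0.31, adjusted p = 0.00054 and Zfp105 from 2.91, 3.33 and 3.88 to 5.33, 6.68 and 5.32 (0.77 ± 0.12, adjusted p = 2.3e-05). These genes thus rose after IR in both genotypes. The KRAB genes Zfp9 (0.93 ± 0.24), Zfp563 (0.77 ± 0.20) and Zfp184 (1.60 ± 0.50) rose in the libraries labelled cKO. Of these, only Zfp563 had a called difference between the genotypes in the response, given below. Zfp9 had a log2 change of 0.54 in WT, which was not called (adjusted p = 0.074). Zfp184 held 0.181, 0.249 and 0.171 CPM in cKO Ctrl and 0.702, 0.744 and 0.391 in cKO IR, and its call was lost without cKO IR replicate 2.

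**Figure D1:**
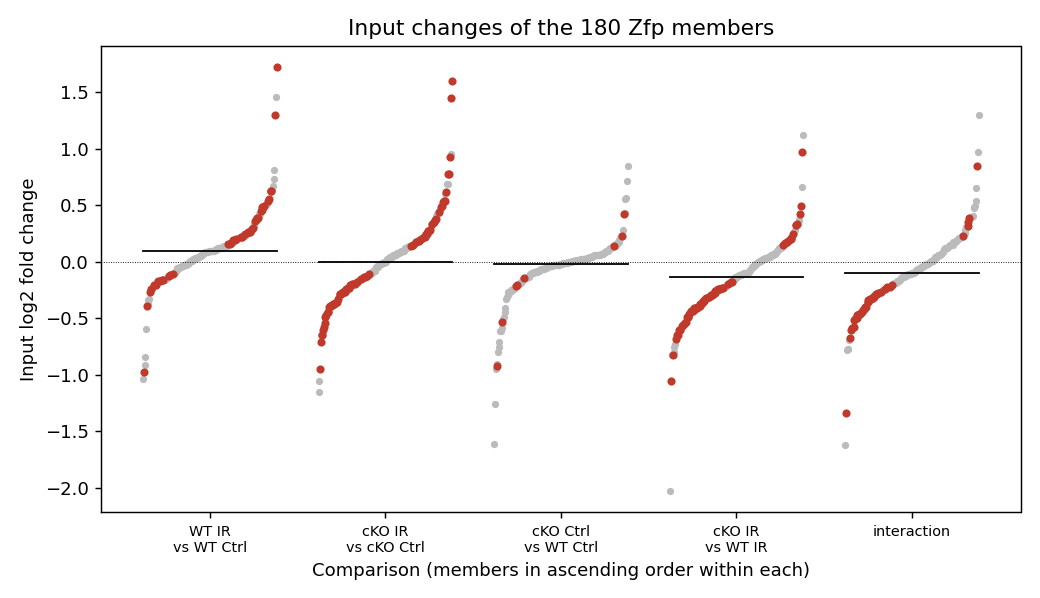
Input log2 fold changes of the 180 members in the 5 Input comparisons, in ascending order within each, with called members in red, the others in grey and black lines at the medians; interaction is the IR response in cKO minus that in WT. The line for cKO IR against WT IR lies at -0.13, with 54 members called lower and 13 called higher.

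The genotypes were also set side by side without irradiation. Between cKO Ctrl and WT Ctrl 8 members (4.44%) were called, 5 lower and 3 higher, where the background was 15.7% (7.61% lower and 8.05% higher), and 27 had an unadjusted p under 0.05. Zfp523, the mouse counterpart of the activator ZNF76 (chr17:28177129-28205886, + strand), measured 9.71, 9.46 and 9.78 CPM (WT Ctrl) against 6.93, 6.63 and 6.51 CPM (cKO Ctrl), a log2 change of -0.53 ± 0.08, adjusted p = 7.4e-05. Zfp467 measured 17.6, 16.3 and 16.9 CPM (WT Ctrl) against 22.3, 22.3 and 23.5 CPM (cKO Ctrl), a log2 change of 0.43 ± 0.06, adjusted p = 2.5e-05. Neither overlapped between genotypes, nor did the other 6 called, against 99.5% of all called genes without overlap. Zfp9 (-0.92 ± 0.24), Zfp407 (-0.22 ± 0.04), Zfp326 (-0.21 ± 0.05) and Zfp516 (-0.15 ± 0.04) were lower, and Zfp52 (0.23 ± 0.06) and Zfp263 (0.14 ± 0.03) were higher in the libraries labelled cKO. Single libraries ended several of these calls, Zfp9 without WT Ctrl replicate 3 or cKO Ctrl replicate 2, Zfp326 and Zfp52 without cKO Ctrl replicate 2, and Zfp263 without WT Ctrl replicate 1. The call of Zfp516 was lost without WT Ctrl replicate 2 or 3 and without any 1 of the cKO Ctrl replicates. The count rests on single libraries, being 4 (2 lower and 2 higher) without cKO Ctrl replicate 2 and 17 without WT IR replicate 1, it split into 3 lower and 5 higher without WT Ctrl replicate 3, and it was 23 when the 6 libraries were fitted alone.

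The genotypes were then compared after irradiation. Between cKO IR and WT IR Inputs 67 members (37.2%) were called, where the background was 47.7%. Of these, 54 (30%) were lower in cKO IR against a background of 23.8%, and 13 (7.22%) were higher against a background of 23.9%. The median was -0.13 over members and 0.00 over all genes. The 3 libraries of each group did not overlap for 59 of the 67 (88.1%), against 93.7% of all called genes. Reads in no gene took 5.91 to 6.80% in WT IR and 4.10 to 4.30% in cKO IR, and mitochondrial genes 6.13 to 7.25% and 3.39 to 3.75% of gene counts, and their part in this difference was not tested.

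Zfp366, known as DC-SCRIPT, a nuclear receptor corepressor of dendritic cells (chr13:99184823-99250656, + strand), was among the lower genes. It stood at 67.5, 71.7 and 72.2 CPM (WT IR) and 42.9, 46.2 and 45.7 CPM (cKO IR) after irradiation, and at 51.2, 46.4 and 47.7 CPM (WT Ctrl) and 50.3, 48.8 and 49 CPM (cKO Ctrl) without it (-0.65 ± 0.05, adjusted p = 6.2e-10). It was highest in the 3 WT IR libraries, and the 3 cKO IR libraries lay below the 3 cKO Ctrl ones (-0.14 ± 0.05, adjusted p = 0.023). Zfp174, a SCAN-domain repressor, measured 1.48, 1.94 and 1.82 CPM (WT IR) against 0.95, 0.871 and 0.691 CPM (cKO IR), a log2 change of -1.06 ± 0.22, adjusted p = 0.0005. Zfp523 held 10.9, 11.1 and 12.7 CPM (WT IR) against 6.83, 6.19 and 6.61 CPM (cKO IR), a log2 change of -0.82 ± 0.08, adjusted p = 4.7e-08. In both genes every cKO IR library was below every WT IR library. Zfp369 (-0.64 ± 0.07) and Zfp580 (-0.68 ± 0.21) were also lower, the call of Zfp580 being lost without WT IR replicate 1.

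Of the genes higher in cKO IR, the KRAB gene Zfp558 measured 1.36, 1.4 and 1.73 CPM (WT IR) against 3.43, 2.98 and 2.37 CPM (cKO IR), a log2 change of 0.97 ± 0.20, adjusted p = 0.00034. Zfp593, a counterpart of a yeast ribosome-export factor, measured 11.4, 10.2 and 11.6 CPM (WT IR) against 14.2, 16.9 and 15.7 CPM (cKO IR), a log2 change of 0.50 ± 0.08, adjusted p = 3.1e-05. The groups did not overlap for either gene. Zfp53 (0.42 ± 0.07), Zfp386 (0.33 ± 0.06) and Zfp410, an activator of the remodelling enzyme gene Chd4 (0.32 ± 0.07), were higher too.

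The response to IR itself differed between genotypes for 40 members (22.2%), where the background was 30.2%. In 35 (19.4%) the log2 change after IR was lower in cKO than in WT, against a background of 15.2%, and in 5 (2.78%) it was higher, against a background of 15.0%. The median difference was -0.10 over members. The largest falls were in Zfp174 (-1.34 ± 0.31, adjusted p = 0.0023), Zfp366 (-0.68 ± 0.07, adjusted p = 2.9e-07), Zfp169 (-0.60 ± 0.16, adjusted p = 0.006), Zfp316 (-0.59 ± 0.12, adjusted p = 0.0011) and Zfp398 (-0.58 ± 0.12, adjusted p = 0.00072). The 5 that were higher were Zfp563 (0.85 ± 0.28), Zfp593 (0.39 ± 0.11), Zfp53 (0.35 ± 0.10), Zfp410 (0.32 ± 0.10) and Zfp35 (0.23 ± 0.08). The calls of Zfp563, Zfp410 and Zfp35 were lost in several leave-one-out fits.

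**Figure D2:**
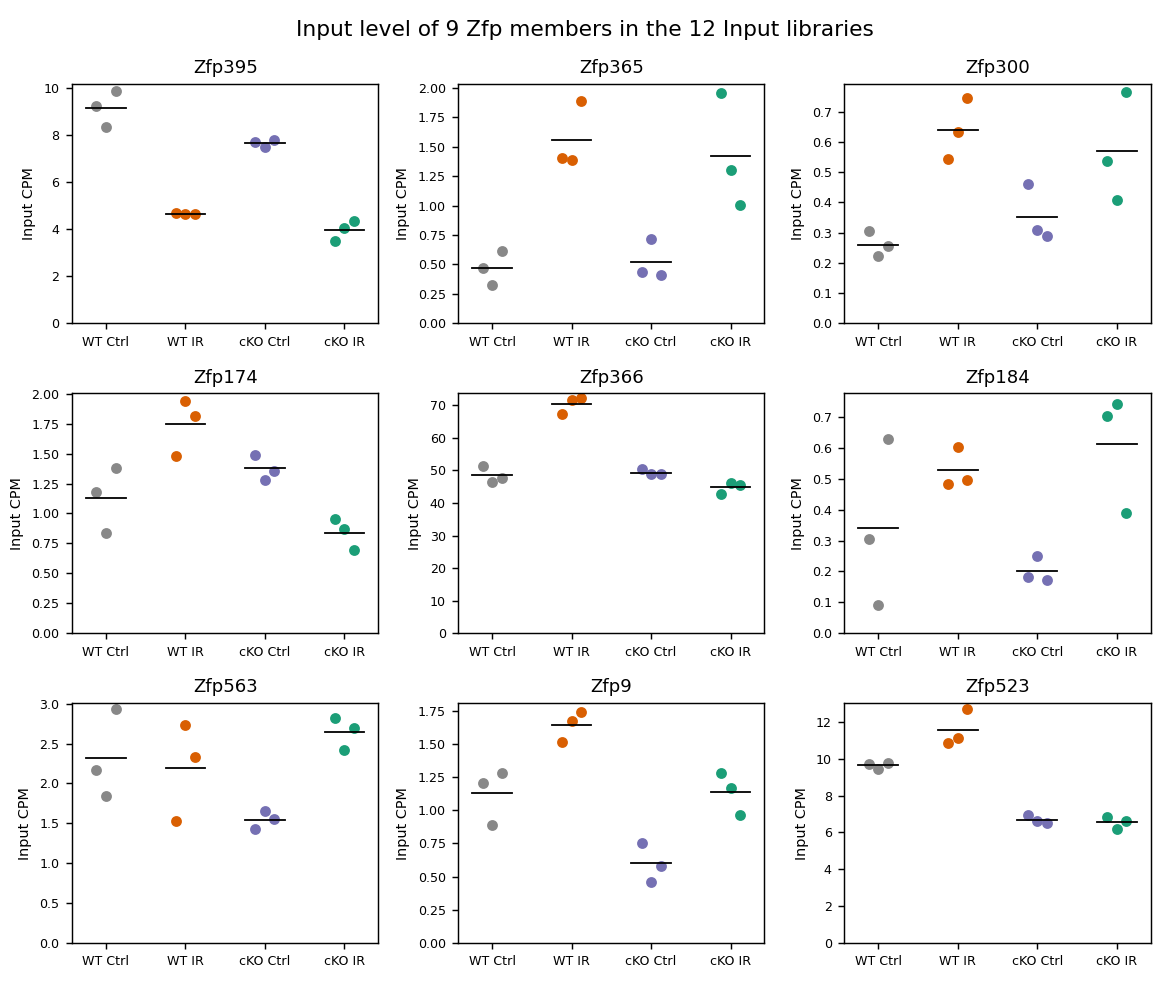
Input level in CPM of 9 members in each of the 12 Input libraries, with points for libraries and lines for group means, each panel on its own axis from 0. Zfp395 is lower after IR in both genotypes, Zfp366 is highest in WT IR, and Zfp523 lies between 6.19 and 6.93 CPM in the libraries labelled cKO and at 9.46 CPM or more in WT.

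By role, Zfp36 rose after IR in WT (0.16 ± 0.05, adjusted p = 0.012) and fell after IR in cKO (-0.26 ± 0.05, adjusted p = 6.6e-05), with a difference between the responses of -0.42 ± 0.06, adjusted p = 4.4e-05. The WT Ctrl and WT IR libraries of Zfp36 overlapped, and its cKO Ctrl and cKO IR libraries did not. Of 15 DNA-binding regulators outside the KRAB family, 4 rose and 3 fell in WT, none rose and 9 fell in cKO, and 9 were lower and 1 higher in cKO IR against WT IR. The backgrounds, higher and lower, were 14.7% and 17.0% after IR in WT and 21.8% and 23.8% after IR in cKO. Between the Ctrl genotypes they were 8.05% and 7.61%, and between the IR genotypes 23.9% and 23.8%. The same backgrounds apply to the other lists in this paragraph and the next. Between the unirradiated genotypes 2 of the 15, Zfp407 and Zfp516, were lower in cKO Ctrl. For cKO IR against WT IR, the fold change was -0.31 ± 0.03 for the repressor Zfp217, -0.53 ± 0.05 for Zfp292 and -0.49 ± 0.04 for Zfp516, known from brown fat. Zfp423 and Zfp536 of that list were below the count minimum. Of 9 members with RNA, ribosome, spindle or ubiquitin-family roles, 2 rose and 1 fell in WT, 4 rose and 2 fell in cKO, 1 was lower in cKO Ctrl than in WT Ctrl, and 3 were lower and 2 higher in cKO IR against WT IR. Zfp598, the ubiquitin ligase that marks collided ribosomes, had 0.09 ± 0.05 in WT and -0.12 ± 0.05 in cKO after IR.

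Of 10 SCAN-domain members, 1 rose and 1 fell in WT, 1 rose and 3 fell in cKO, 1 (Zfp263) was higher in cKO Ctrl than in WT Ctrl, and 4 were lower and 1 higher in cKO IR against WT IR. Both tested members with a role in imprinting or Igf2 control were lower in cKO IR than in WT IR, Zfp445 (-0.24 ± 0.06, adjusted p = 0.0021) and Zfp568 (-0.40 ± 0.05, adjusted p = 4.6e-07). The genotype difference in the response was called lower for 8 of the 15, 2 of the 10 and both of these. For the 9 it was called lower for 2 and higher for 1. The background of this difference was 15.2% lower and 15.0% higher.

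Members with and without a KRAB pattern were counted apart. After IR in WT, 11 of 90 KRAB members rose and 2 fell, and 18 of 90 others rose and 11 fell (background 14.7% higher, 17.0% lower). After IR in cKO, 17 KRAB members rose and 10 fell, and 13 others rose and 34 fell (background 21.8% higher, 23.8% lower). In cKO IR against WT IR, 17 KRAB members were lower and 4 higher, and 37 others were lower and 9 higher (background 23.8% lower, 23.9% higher). As shares of the 90, all these KRAB counts lay under the backgrounds. Of the others, the shares that rose in WT, fell in cKO and were lower in cKO IR lay above them, and the rest lay under them. The KRAB members lay at lower Input levels, as given above, and the difference between the subsets was not tested.

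The next comparison asked how far member RNA was pulled down by the m6A antibody. IP over Input is the log2 ratio of IP to Input CPM, scaled so that a typical gene lies near 0, and a gene was called enriched when the ratio was above 0 at an adjusted p under 0.05. In WT Ctrl 124 of 180 members (68.9%) were enriched, where the background was 38.1%, and 31 (17.2%) were depleted against a background of 37.5%. The median ratio was 0.75 over members and 0.02 over all genes. In cKO Ctrl 121 (67.2%) were enriched against a background of 37.8%, with a median of 0.68. By the average ratio of both IR groups, 127 (70.6%) were enriched against a background of 40.1% and 32 (17.8%) depleted against 40.2%, which makes 159 (88.3%) called against 80.3%, and the median was 0.65. With the IR IP groups divided by the Input of the same label, 110 (61.1%, WT IR) and 129 (71.7%, cKO IR) were enriched against backgrounds of 37.0% and 36.9%. With the IR IP groups exchanged between genotypes, a pairing tried after seeing the data, these were 121 (67.2%) over WT IR Input and 123 (68.3%) over cKO IR Input, against backgrounds of 37.8% and 36.4%. CPM values from here on are scaled over all 24 libraries, so Input values differ slightly from those scaled over the 12 Inputs above.

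**Figure D3:**
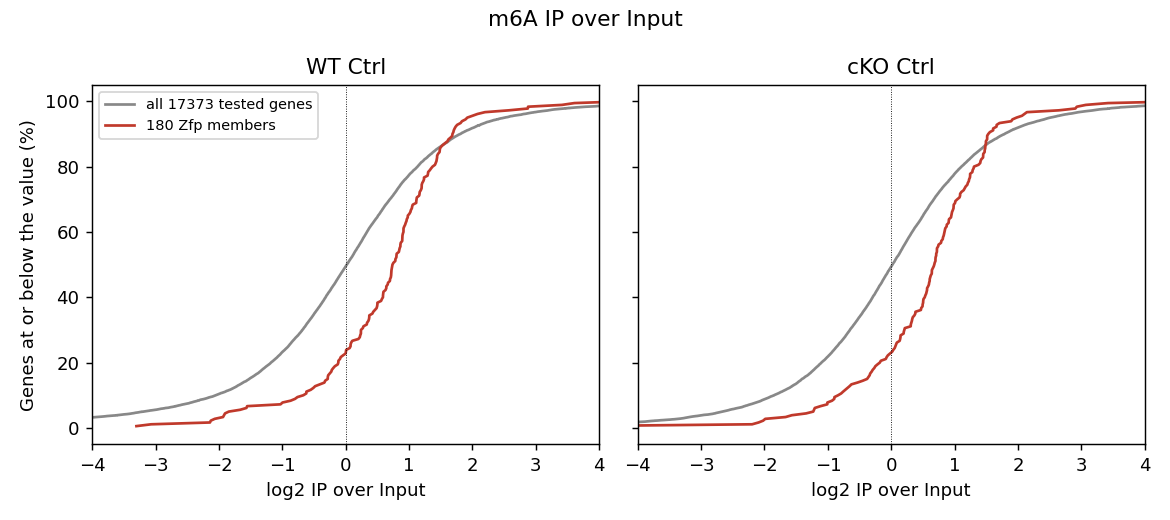
Cumulative share of genes in percent against log2 IP over Input in WT Ctrl and cKO Ctrl, for members in red and all 17373 genes of that fit in grey. The members' curve lies to the right over most of its range, with a median of 0.75 in WT Ctrl against 0.02 for all genes.

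The highest ratios belonged to genes low in the Inputs. Zfp473, the counterpart of a U7 snRNP-associated factor of histone pre-mRNA processing, measured 0.24, 0.395 and 0.418 CPM in WT Ctrl Input and 7.37, 8.01 and 7.35 CPM in WT Ctrl IP (4.42 ± 0.24, adjusted p = 7.9e-18). Zfp7, whose peak window is shown above, measured 2.84, 2.67 and 4.01 CPM in Input and 33.5, 34.2 and 33.9 in IP (3.41 ± 0.09, adjusted p = 3.8e-26). Zfp599 measured 0.779, 0.847 and 0.649 CPM in Input and 9.36, 8.96 and 9.53 in IP (3.61 ± 0.22, adjusted p = 2.8e-16). For all 3 the lowest IP library was above the highest Input library. Zfp54 (2.88 ± 0.13) and Zfp472 (2.87 ± 0.08), also shown above, and Zfp286 (1.84 ± 0.44) completed the top 6 by the mean of both Ctrl groups. Zfp473 and Zfp286 carried no consensus peak in any group, so their ratios rest on gene counts alone. Zfp7, Zfp599, Zfp54 and Zfp472 carried a consensus peak in both Ctrl groups.

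At the other end, Zfp580 measured 1.32, 1.21 and 1.2 CPM in WT Ctrl Input and 0.145, 0.115 and 0.114 in IP (-3.30 ± 0.44, adjusted p = 3.3e-08). Zfp366 measured 55.2, 50.2 and 51.4 CPM in Input and 18, 18.4 and 16.6 in IP (-1.57 ± 0.05, adjusted p = 2e-23), and Zfp395 measured 9.99, 9.04 and 10.7 CPM in Input and 2.02, 2.26 and 2.8 in IP (-2.07 ± 0.12, adjusted p = 4.5e-17). Every IP library was below every Input library for these genes. Zfp358 (-2.14 ± 0.12) and Zfp362 (-1.84 ± 0.06) were depleted as well. Zfp462 was near the count minimum, at 0.15, 0.0989 and 0.115 CPM in Input and 0.0395, 0 and 0 in IP. Zfp36 was depleted too, at 171, 159 and 163 CPM in Input and 97.4, 91.3 and 94.9 in IP (-0.80 ± 0.04, adjusted p = 8.3e-19).

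By list, 8 of the 15 DNA-binding regulators, 7 of the 9 RNA, ribosome, spindle or ubiquitin-family members, 7 of the 10 SCAN members and 1 of the 2 imprinting members were enriched in WT Ctrl. Depleted were 6, 1, 1 and 0 of them. The background was 38.1% enriched and 37.5% depleted, also for the subsets that follow. Among KRAB members 67 of 90 (74.4%) were enriched in WT Ctrl, with a median ratio of 0.91, and among the others 57 of 90 (63.3%), with a median of 0.59. Of 36 members with at least 15 fingers 30 were enriched (83.3%), of 69 with 10 to 14 fingers 45 (65.2%), and of 47 with 5 to 9 fingers 31 (66.0%). Of 23 with 1 to 4 fingers 14 were (60.9%), and of 5 with 0 fingers 4 were (80.0%). These differences between subsets were not tested.

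Rank correlations with gene structure were weak. Over the 180 members Spearman's rho with the WT Ctrl ratio was 0.18 for the number of fingers, 0.24 for the share of coding sequence in the last exon, -0.24 for the number of exons, 0.08 for the length of the longest coding exon, -0.03 for GGACT per kb of coding sequence and -0.15 for the Input level, which is also the denominator of the ratio. The members share libraries and, within clusters, sequence, so these are descriptions. Of 133 members with a coding exon of at least 1000 bases 96 were enriched (72.2%), against 778 of 1533 (50.8%) of genes with such an exon and no Zfp symbol. Of the 47 members without one 28 were enriched (59.6%), against 4404 of 10936 (40.3%).

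**Figure D4:**
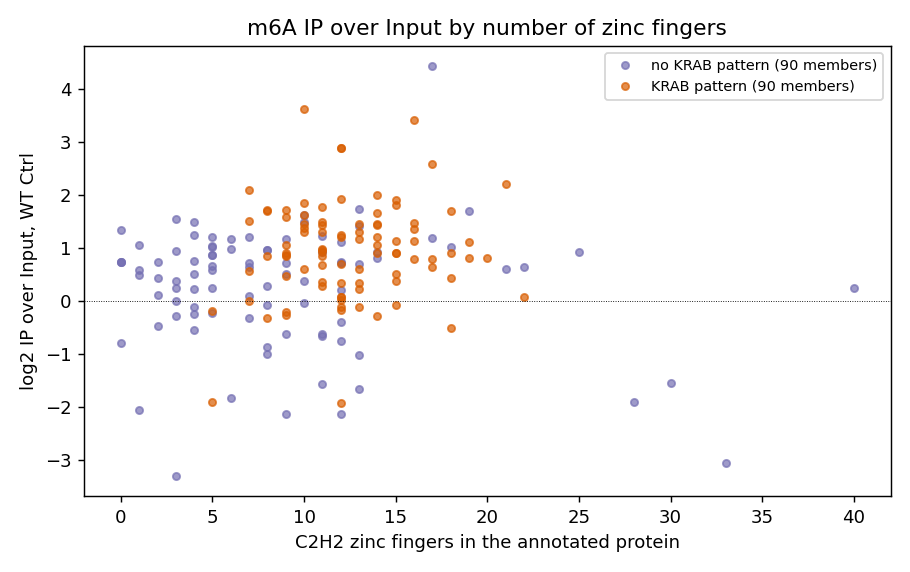
Log2 IP over Input in WT Ctrl against the number of C2H2 zinc fingers, with each point a member and members with a KRAB pattern in orange. The points scatter widely at every number of fingers, with a Spearman rho of 0.18 over 180 members.

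Between the unirradiated genotypes IP over Input changed for 31 members (17.2%), 25 lower and 6 higher in cKO Ctrl, where the background was 22.6% (12.5% lower and 10.1% higher). The count was 17 to 22 when 1 replicate of every group was left out. Zfp523 changed most downward, with 10.5, 11.4 and 11.3 CPM in WT Ctrl IP and 2.7, 3.57 and 3.18 in cKO Ctrl IP against Inputs of 10.5, 10.2 and 10.5 CPM (WT Ctrl) and 7.55, 7.22 and 7.04 CPM (cKO Ctrl), a log2 change of -1.29 ± 0.13, adjusted p = 3e-09. Its IP fell beyond its Input, and neither overlapped between genotypes. In the libraries labelled WT IR its IP held 3.64, 3.47 and 4.49 CPM and in those labelled cKO IR 12.8, 12.3 and 13.2, the order opposite to its Inputs, as for Lyz2. Zfp467 (-0.71 ± 0.08) and Zfp263 (-0.52 ± 0.04) were lower, and Zfp507 (0.94 ± 0.28), Zfp369 (0.70 ± 0.12) and Zfp563 (0.63 ± 0.21) were higher in cKO Ctrl.

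Averaged over genotypes, IR changed IP over Input for 84 members (46.7%), 44 (24.4%) lower and 40 (22.2%) higher, where the background was 48.4% (23.1% lower and 25.3% higher). Another scaling (the relative log expression size factors) turned this split to 39 lower and 42 higher, and it was 31 and 36 without replicate 2 and 38 and 38 without replicate 1. Zfp7 fell, with IP of 11.7, 12.2 and 12.1 CPM in libraries labelled WT IR and 20.6, 20.8 and 20.6 in those labelled cKO IR, against 22.6, 23.3 and 23.7 in cKO Ctrl and the WT Ctrl values above (-0.72 ± 0.10, adjusted p = 1.5e-07). The largest falls were in Zfp286 (-1.34 ± 0.45, adjusted p = 0.013), Zfp599 (-1.01 ± 0.23, adjusted p = 0.00037), Zfp566 (-0.86 ± 0.22), Zfp296 (-0.85 ± 0.08) and Zfp58 (-0.85 ± 0.24). The largest rises were in Zfp541, a gene known from meiotic testis cells (1.63 ± 0.62, adjusted p = 0.03), Zfp507 (0.81 ± 0.19, adjusted p = 0.00071), Zfp395 (0.74 ± 0.12), Zfp579 (0.70 ± 0.26) and Zfp335 (0.57 ± 0.07). Zfp286 and Zfp541 held under 1 CPM in every library, so their ratios rest on few reads. Zfp395 combined a lower Input with a higher ratio after IR, its IP measuring 2.02, 2.26 and 2.8 CPM in WT Ctrl, 1.8, 1.66 and 1.99 in cKO Ctrl, 1.98, 1.97 and 2.24 in libraries labelled WT IR and 1.4, 1.51 and 1.61 in those labelled cKO IR. By list, 9 of the 15 DNA-binding regulators had a higher ratio after IR and 1 a lower one, read against the same backgrounds of 25.3% and 23.1%.

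Peaks gave a second view of the same libraries. In WT Ctrl 87 members (48.3%) carried a consensus peak on their strand, where the background was 29.6%. Of the 177 WT Ctrl consensus peaks over members, 13 (7.34%) also overlapped another gene on the same strand and may belong to it. The background counted shared peaks in the same way. In cKO Ctrl 75 did (41.7%, background 27.7%), and in the libraries labelled WT IR and cKO IR 61 (33.9%, background 25.1%) and 80 (44.4%, background 22.3%). In all 4 groups 51 did (28.3%, background 17.3%), and 96 did in at least 1 group (53.3%, background 35.0%). With peaks of fold 4 or more, 29 (16.1%, background 10.6%) and 28 (15.6%, background 9.11%) did in WT Ctrl and cKO Ctrl, and 10 (5.56%, background 7.73%) and 22 (12.2%, background 6.82%) in the libraries labelled WT IR and cKO IR. In all 4 groups 5 did at that fold (2.78%, background 3.8%), so there the members lay under the background. Of the 96 with a peak at any fold, 89 were enriched in WT Ctrl by counts, and of the 84 with no consensus peak 35 were.

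Per library, member genes held 283, 275 and 273 peaks in WT Ctrl, 231, 237 and 231 in cKO Ctrl, 217, 216 and 201 in libraries labelled WT IR and 273, 265 and 254 in those labelled cKO IR. The mean difference, IR minus Ctrl libraries, was -17.3 member peaks, which did not pass an exact permutation test (two-sided, 400 arrangements within genotype, p = 0.315, smallest possible 0.005). That test arranges libraries within labelled genotype. With the IR IP groups exchanged between genotypes, the same difference had an exact permutation p of 0.01, the smallest those values allow, and with all 12 libraries arranged regardless of genotype it had an exact permutation p of 0.299. Whether the difference passes therefore depends on the genotype given to the IR IP libraries. Over all genes the difference was -1874 peaks (exact permutation p = 0.015, 0.045 with the groups exchanged and 0.0238 regardless of genotype).

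**Figure D5:**
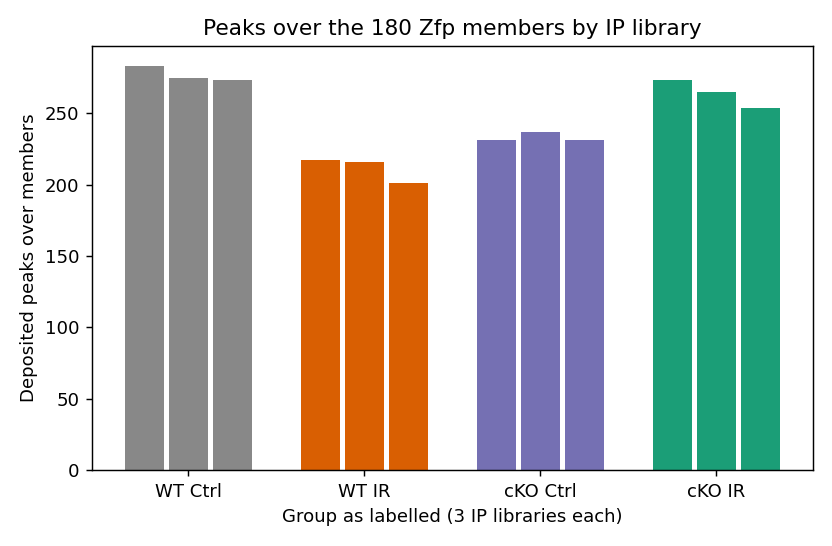
Number of deposited peaks over the 180 members in each IP library, drawn as bars in 4 groups as labelled. WT Ctrl libraries hold 273 to 283 peaks and libraries labelled WT IR hold 201 to 217.

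Of 176 WT Ctrl consensus summits placed in the annotation, 121 (68.8%) fell in coding sequence, 28 in the 3′ UTR, 6 in the 5′ UTR and 21 elsewhere. Of the 121, 93 were in the last exon. Within coding sequence 68 of 121 (56.2%) lay between the first and last finger, 37 lay before the array and 14 after it. The other 2 lay in members without fingers and stay in the 121. The array held 61.7% of the coding bases of the genes with fingers under these summits, each gene counted once per summit. Within 200 bases of the coding end were 27 summits. The share of summits in the array was therefore close to, and slightly under, its share of the bases, a difference that was not tested. Zfp217 carried the most consensus peaks in WT Ctrl, 6.

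The letters under the summits were compared with those of the surrounding exon. Of 103 WT Ctrl windows of 101 bases, 24 (23.3%) held GGAC on the transcribed strand, against 95 of 476 (20.0%) windows tiled over the same coding sequence away from summits. GGACT was in 5 (4.85%) against 34 (7.14%), the capitalised core, AC after 2 purines, in 89 (86.4%) against 408 (85.7%), and the finger linker codons in 27 (26.2%) against 112 (23.5%). GGACT windows are a subset of GGAC windows. None of these shares was tested.

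Among members, 15 (8.33%, background 4.37%) had a consensus peak in WT Ctrl and none in cKO Ctrl, among them Zfp263, Zfp142, Zfp296, Zfp318 and Zfp516, and 3 (1.67%, background 2.39%) had the reverse, Zfp143, Zfp446 and Zfp503. Another 8 (4.44%, background 3.11%) had one in both Ctrl groups and in neither IR group, Zfp94, Zfp105, Zfp160, Zfp330, Zfp382, Zfp511, Zfp593 and Zfp599, and 0 had the reverse (background 0.653%). These were chosen after their values were seen, and a consensus needs a call in 3 libraries, so a site near the caller's threshold can drop out. For Zfp599 the fall in IP over Input after IR, given above, was measured in the counts of the same libraries. Zfp105 rose in the Inputs after IR in both genotypes.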

How the data were processed

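Polyadenylated RNA of CD11b+ cells was sequenced as Input and m6A IP libraries, 3 for each of 8 groups. Per the labels and the study's methods, the authors used Trimmomatic 0.39 for adapters, HISAT on the mm10 genome, HTSeq on GENCODE genes, and MACS2 for peaks of each IP library and strand. Bedtools 2.26.0 is also named in the submitters' processing notes. The deposited gene tables hold raw read counts. The deposited peak files hold fold enrichment over background (a ratio), -log10 p-values, -log10 q-values and a score. The control used for peak calling is not given in the sources used here. Reads assigned to no gene or to several stayed outside the library totals (2.97 to 6.80% of reads in no gene).

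Genes were matched by identifier to GENCODE annotation of GRCm38 (54409 of 54446). Members, subsets and gene lists were chosen with earlier results of these data known, and the genes named were picked by rules on size and overlap of replicates among called members, plus those lists. Counts were fitted with edgeR 4.0.16 (R 4.3.3, TMM scaling, quasi-likelihood F test, Benjamini-Hochberg adjustment over all genes) for genes reaching 10 counts in 3 or more Inputs, in 1 fit of the 12 Inputs. IP over Input used 1 fit of all 24 libraries, 17373 genes. The scaling sets a typical gene to 0, so a change common to all RNAs is not seen. Biological coefficients of variation were 5.57% and 4.98%. The code was tested on simulated data.

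Alternatives were DESeq2 1.42.0, other scaling, other count filters, the 6 libraries of a contrast alone, leaving out replicates, a replicate block, and stricter peaks, plus, chosen after seeing the data, the IR IP groups exchanged between genotypes and a permutation without genotype. Sequences from chromosome 18 were not used here. A consensus peak was a run of peaks, each joined to the run by an overlap of at least 1 base, that held a peak of all 3 libraries. Peaks of different libraries in a run did not have to overlap each other directly. C2H2 fingers and the KRAB box were letter patterns in the translated annotated transcript, 2 KRAB patterns being searched in the first 350 residues. Protein sequences from a curated table were not used here.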

Additional observations from a re-analysis of the deposited data

Results flagged for a closer look

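The response to irradiation differed between genotypes for 40 members by the interaction term of the edgeR fit at an adjusted p under 0.05. Each value here is the log2 change after IR in cKO minus that in WT, on Input counts. It was -1.34 for Zfp174, -0.68 for Zfp366, -0.60 for Zfp169, -0.59 for Zfp316 and -0.58 for Zfp398, each change being lower in cKO than in WT. It was 0.85 for Zfp563, 0.39 for Zfp593, 0.35 for Zfp53, 0.32 for Zfp410 and 0.23 for Zfp35, each change being higher in cKO than in WT. Zfp53 fell in WT (-0.20), and its value in cKO (0.15) was above 0 and not called. Zfp174 rose in WT (0.63) and fell in cKO (-0.71). Zfp366 rose in WT (0.54) and fell in cKO (-0.14). Groups of 3 libraries were not tested for outlying samples.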

How the results depend on the processing

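Across the alternatives, 149 of 160 values and counts for the members as a set stayed within 1.5 times the count reported, on the same side of the test's threshold, or within the spread of libraries. The direction held by most called members turned or came to a tie in 5 of them, 2 for cKO Ctrl against WT Ctrl and 3 for IP over Input after IR, all given beside those results. The median of cKO IR against cKO Ctrl, near 0, changed sign with the other scaling, from 0.00088 to -0.00021. Exchanging the IR IP groups between genotypes, added after seeing the data, left the difference in member peaks at -17.3 and moved its exact permutation p from 0.315 to 0.01. Fitted on its 6 libraries alone, WT IR against WT Ctrl gave 23 called members in place of 42, and cKO Ctrl against WT Ctrl gave 23 in place of 8. With peaks of fold 4 or more, consensus peaks lay over 29, 28, 10 and 22 members in WT Ctrl, cKO Ctrl and the libraries labelled WT IR and cKO IR. In that order these were 16.1%, 15.6%, 5.56% and 12.2% of members, where the backgrounds were 10.6%, 9.11%, 7.73% and 6.82%. Leaving out single libraries, counts of called members ranged from 30 to 47 (WT IR against WT Ctrl), 57 to 79 (cKO IR against cKO Ctrl), 4 to 17 (cKO Ctrl against WT Ctrl, 4 without cKO Ctrl replicate 2 and 17 without WT IR replicate 1), 60 to 67 (cKO IR against WT IR) and 34 to 47 (interaction). Changed IP over Input between the Ctrl genotypes fell from 31 to 18, 22 and 17 without replicate 1, 2 and 3. The other IP ranges were 120 to 122, 116 to 119, 105 to 111 and 126 to 129 enriched members in the 4 groups, 123 for the average of both IR groups, and 67 to 76 changed after IR. The difference in member peaks ranged from -19.6 to -14.8. DESeq2 gave 46, 74, 12, 69 and 43 called members in the 5 Input comparisons. The cause of these shifts was not tested.

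With a replicate block the counts were 42, 74, 8, 68 and 38 in the Inputs and 24 for the change between Ctrl genotypes. The labels give the groups shared replicate numbers. No pair of same-numbered libraries correlated above 0.1 after group means were removed, with r from -0.036 to 0.023. Noise of single libraries could hide a shared RNA pool, so these values cannot tell whether same-numbered libraries came from 1 pool. For 48 values of named members, the call was kept in 807 refits and lost in 45, which fell on 14 of the values. Depth limits the members under 1 CPM, whose changes need to be large to be called.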

Other observations

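The partners through which KRAB zinc finger proteins act were also measured in the Inputs. Of 12 genes listed as KRAB corepressor machinery, 6 were lower and 3 higher after IR in WT. After IR in cKO 7 were lower and 1 higher. Of the same 12, 5 were lower in cKO Ctrl against WT Ctrl and 6 in cKO IR against WT IR, with none higher in either genotype comparison. The backgrounds, lower and higher, were 17.0% and 14.7% after IR in WT, 23.8% and 21.8% after IR in cKO, 7.61% and 8.05% between the Ctrl genotypes and 23.8% and 23.9% between the IR genotypes. Trim28, the corepressor itself, had a log2 fold change of -0.21 ± 0.04 (SE) after IR in WT and -0.28 ± 0.04 in cKO. Uhrf1, which guides maintenance DNA methylation and is abundant in dividing cells, fell by 1.15 ± 0.05 on the log2 scale in WT and by 1.06 ± 0.05 in cKO. Dnmt1, the maintenance methyltransferase, fell by 0.28 ± 0.04 in WT and by 0.60 ± 0.04 in cKO. Summed progenitor markers were also lower after IR in both genotypes, and their part in these values was not tested.

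The other 166 tested Zfp symbols, those numbered 600 or above or carrying letters, had 122 (73.5%) genes enriched by m6A IP in WT Ctrl, where the background was 38.1%, with a median log2 ratio of 0.85. In cKO IR against WT IR Inputs, 40 of them (24.1%) were lower and 21 (12.7%) higher, against backgrounds of 23.8% and 23.9%. The differences between these and the other Zfp genes were not tested.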
